A study of Rattus norvegicus with 9 samples.

Results

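The zinc-dependent histone deacetylases Hdac1 to Hdac10 were followed in rat left ventricle by RNA sequencing. They were chosen by gene name, and their rows are 10 of 22608 gene names and 46 of 55767 transcripts in the deposited tables. The study had 3 groups of Sprague-Dawley rats, labelled saline, Ang II and Ang II+NaBu with 3 libraries per group, all sampled after 28 days from a labelled age of 8 weeks. Angiotensin II (Ang II) is a pressor peptide used to load the rodent heart, and NaBu is sodium butyrate. The NaBu group carried Ang II as well, so NaBu was compared with Ang II and with saline, and NaBu without Ang II was not analysed here. The labels give no dose or route. Whether the libraries of a group come from separate animals is not stated either, so p-values measure the spread between these libraries, which may be technical.

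Histone deacetylases remove acetyl groups from lysines of histones and other proteins, and butyrate is a short-chain fatty acid known to inhibit the catalysis of many of them. Class I enzymes (Hdac1, Hdac2, Hdac3 and Hdac8) are mainly nuclear, and the first 3 of them work inside corepressor complexes. Class IIa enzymes (Hdac4, Hdac5, Hdac7 and Hdac9) have little catalytic activity of their own, bind MEF2 transcription factors, restrain hypertrophic gene expression in the heart, and leave the nucleus when kinases of the CaMK and PKD families phosphorylate them. Class IIb holds Hdac6, the cytoplasmic tubulin deacetylase, and Hdac10, a polyamine deacetylase. RNA levels say nothing of enzyme activity or histone acetylation, which were not measured here.

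The promoters of Hdac4, Hdac7, Hdac8 and Hdac10 are shown because these are the members with an unadjusted p under 0.05 in the NaBu comparisons. Each runs from 250 bases before to 50 bases after the RefSeq gene start in the rat build GRCr8 and is printed 5′ to 3′ on the gene's own strand. Capitals mark the GC box GGGCGG, searched on both strands.
Hdac4, chr9:100197588-100197887, minus strand: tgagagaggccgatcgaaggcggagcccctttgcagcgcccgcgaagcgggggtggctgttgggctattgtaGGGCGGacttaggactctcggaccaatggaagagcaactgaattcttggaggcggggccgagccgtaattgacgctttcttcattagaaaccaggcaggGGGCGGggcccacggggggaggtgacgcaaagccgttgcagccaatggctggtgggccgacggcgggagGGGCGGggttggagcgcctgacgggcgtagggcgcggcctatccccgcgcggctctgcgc
Hdac7, chr7:130840968-130841267, minus strand: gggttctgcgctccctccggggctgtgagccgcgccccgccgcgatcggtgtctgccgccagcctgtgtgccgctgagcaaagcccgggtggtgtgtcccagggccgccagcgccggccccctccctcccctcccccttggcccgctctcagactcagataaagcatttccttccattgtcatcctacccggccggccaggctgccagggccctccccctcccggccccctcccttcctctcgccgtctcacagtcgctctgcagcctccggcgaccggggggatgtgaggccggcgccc
Hdac8, chrX:71632816-71633115, minus strand: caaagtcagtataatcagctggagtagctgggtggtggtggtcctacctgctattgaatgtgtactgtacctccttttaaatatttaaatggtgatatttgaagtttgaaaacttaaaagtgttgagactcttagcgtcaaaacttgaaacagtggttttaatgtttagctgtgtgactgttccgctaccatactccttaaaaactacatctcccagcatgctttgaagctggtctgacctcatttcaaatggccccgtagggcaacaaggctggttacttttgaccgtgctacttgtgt
Hdac10, chr7:122083797-122084096, minus strand: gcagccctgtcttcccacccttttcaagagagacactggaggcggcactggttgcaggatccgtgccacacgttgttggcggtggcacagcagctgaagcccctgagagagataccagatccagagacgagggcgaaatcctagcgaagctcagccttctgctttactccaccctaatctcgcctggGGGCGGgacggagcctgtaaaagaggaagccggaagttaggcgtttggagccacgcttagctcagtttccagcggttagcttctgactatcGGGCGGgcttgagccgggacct
The promoters of Hdac4 and Hdac10 held 3 and 2 GC boxes, and those of Hdac7 and Hdac8 held 0 in this window. The Hdac7 promoter was 72.7% G and C and the Hdac8 promoter 41.3%, against a median of 52.3% over 27457 rat promoters of this length. The 4 promoters share neither the GC box nor a base composition. Over all 10 members, 7 had a GC box, which 34.9% of all promoters had. The CCAAT box stood in 5 of 10 members and in 37.7% of all promoters, and the TATA box TATAAA in 0 of 10 members and in 14.3%. The consensus MEF2 site occurred in 1 member, Hdac5, and in 3.83% of all promoters. All motifs were searched on both strands, and a match describes the letters only. Because its N positions are free, a match to the MEF2 pattern can hold a TATA or CCAAT box.

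Library totals ran from 29284780 to 49865446 estimated counts. What 1 sequenced fragment is worth in estimated counts is not given. In genes of a single transcript, at least 334 values per library were 4, 5, 8 or 9 and at most 230 were 2, 3, 6 or 7, so a worth near 4 was assumed where a counting error is given. Levels are given in CPM, relative to the library total after TMM scaling, and they are not compared between genes because transcript lengths were not used. Markers of ventricular cardiomyocytes summed to 46250 to 76570 CPM, and none of the marker genes of the 8 cell types searched was at 0 in all libraries. Saline replicate 2 stood apart: its 10 atrial markers summed to 6039 CPM, against 111.5 to 361.2 in the other 8 libraries. Saline replicate 3 was raised in some of these markers, with Myl7 at 27.2 CPM and Bmp10 at 22.2. Outside saline replicates 2 and 3 these stood at 0 to 3.98 and 0 to 0.69 CPM. Dkk3, at 33.8 CPM in saline replicate 3, lay within the range of the other libraries. Some results that involve saline are therefore also given without saline replicate 2, and the closing section also leaves out both. Since every group came in a table of its own, table-wise processing and group cannot be told apart.

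None of the 10 deacetylases passed the test in any comparison (edgeR's quasi-likelihood test, all 9 libraries in a single fit, Benjamini-Hochberg adjusted p under 0.05 over 15467 genes). For Ang II against saline, 0 of 10 members passed, beside 0% of all genes. With NaBu, 0 of 10 passed relative to Ang II, beside 1.6% of all genes, and 0 of 10 relative to saline, beside 5.06%. An unadjusted p under 0.05 was reached by 0 of 10 members with Ang II relative to saline (5.94% of all genes), by 4 with NaBu relative to Ang II (22.4%) and by 4 with NaBu relative to saline (24.6%). The same genes made up both sets of 4, namely Hdac4, Hdac7, Hdac8 and Hdac10, and all lay lower with NaBu. Because the NaBu libraries enter both comparisons, the second set is no separate evidence. DESeq2 passed 0, 1 and 2 members in the same order of comparisons. The 1 was Hdac7 against Ang II, where 4.22% of all genes fell by that test. The 2 were Hdac4 and Hdac10 against saline, where 4.89% of all genes fell.

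**Figure D1:**
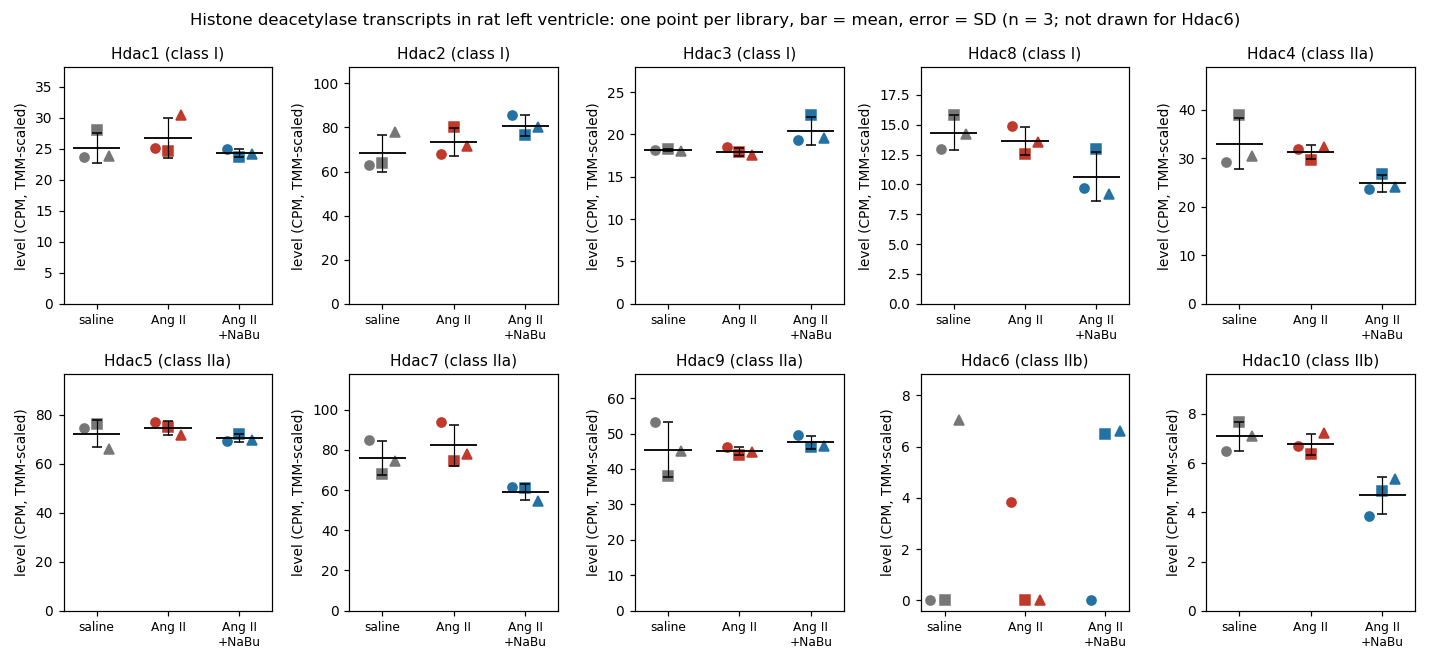
Level of each deacetylase in every library (vertical axes, TMM-scaled CPM, starting at 0 except for Hdac6, where the axis starts just below 0) in the saline, Ang II and Ang II+NaBu groups. Circles, squares and triangles are replicates 1, 2 and 3, or NaBu replicates 2, 4 and 6; bars are means and error bars SDs (n = 3), and Hdac6, listed at 0 in 5 of 9 libraries, has neither. Hdac4, Hdac7 and Hdac10 sit below both other groups in all 3 NaBu libraries.

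Ang II against saline asks whether Ang II came with other levels of deacetylase transcripts, and the differences were small. The load on these ventricles was not measured here. The log2 differences of the 9 members other than Hdac6 ran from -0.08 for Hdac4 to 0.12 for Hdac7, with a median of -0.01 beside -0.0045 over all genes. Of these 9, 4 lay above 0 and 5 below, and the groups overlapped for all 10 members, while they did not for 9.9% of all genes. The 95% intervals limit what could be missed. The widest was that of Hdac10, from -0.46 to 0.32, and the narrowest that of Hdac5, from -0.15 to 0.24. DESeq2 gave an adjusted p of 1 for each of these 9.

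For NaBu against Ang II, the study's test of butyrate on the Ang II heart, 3 of the 9 lay above 0 and 6 below, with a median of -0.14 beside -0.02 over all genes. The groups did not overlap for 5 of 10 members, beside 35.6% of all genes: Hdac3 and Hdac9 were higher in all 3 NaBu libraries (as were 18.1% of all genes), and Hdac4, Hdac7 and Hdac10 lower (17.5%). For NaBu against saline they did not overlap for 4 of 10 members, beside 28.6% of all genes, namely Hdac3 on the higher side (14.5% of all genes) and Hdac4, Hdac7 and Hdac10 on the lower (14.1%). In that comparison 3 of the 9 again lay above 0 and 6 below, with a median of -0.06 beside -0.05 over all genes.

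**Figure D2:**
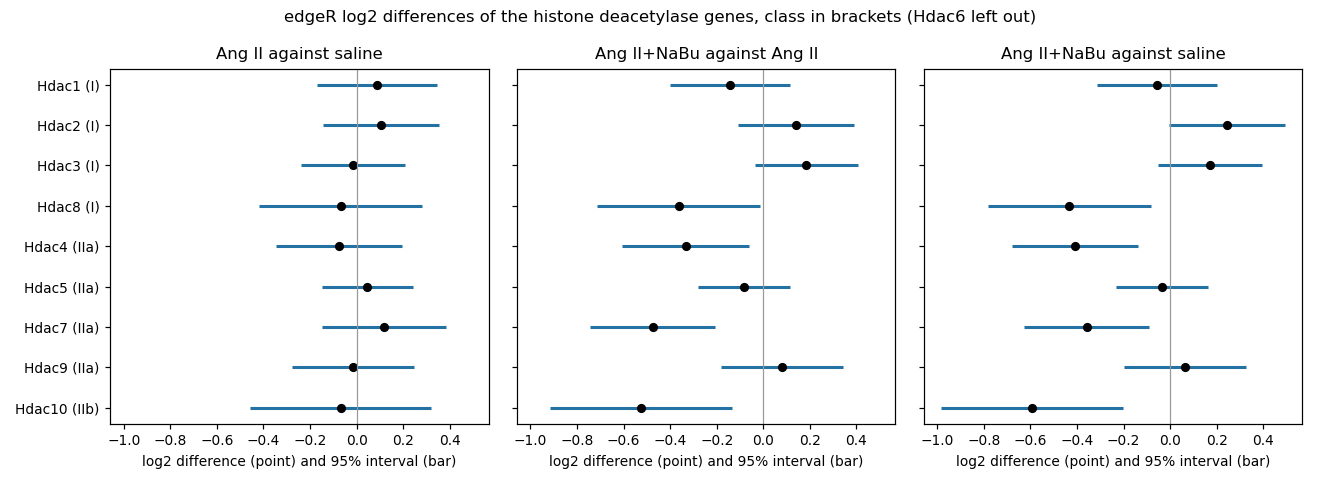
Log2 differences of the members other than Hdac6 in the 3 comparisons, with 95% intervals from edgeR's fit (horizontal axis log2, 0 marked). In the 2 NaBu comparisons the intervals of Hdac4, Hdac7, Hdac8 and Hdac10 lie below 0 before adjustment, and those of Hdac1, Hdac2, Hdac3, Hdac5 and Hdac9 cross it.

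Of the class I enzymes, Hdac1 and Hdac2 are close paralogs that form the catalytic core of the Sin3, NuRD and CoREST complexes. Hdac1 stood at 23.7, 28.0 and 23.9 CPM in saline replicates 1, 2 and 3, at 25.05, 24.7 and 30.5 in the Ang II replicates, and at 24.9, 23.6 and 24.2 in NaBu replicates 2, 4 and 6. The 3 groups overlapped, and NaBu differed from Ang II by a log2 of -0.14 ± 0.12 (SE), with an edgeR adjusted p of 0.505. Hdac2 stood at 63.0, 63.7 and 77.9 CPM with saline, 67.9, 80.2 and 71.8 with Ang II, and 85.8, 76.4 and 80.0 with NaBu. Its means were 68.2 ± 8.43, 73.3 ± 6.31 and 80.7 ± 4.74 (SD, n = 3) in that order, and each group overlapped with both others. The ends of that order, NaBu against saline, differed by a log2 of 0.24 ± 0.11 (SE), with an unadjusted p of 0.055 and an edgeR adjusted p of 0.214. Reads that fit both paralogs may have been split between them.

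Hdac3 is the enzyme of the NCoR and SMRT corepressors, through which it restrains metabolic genes in the mouse heart. It stood at 18.1, 18.2 and 18.1 CPM with saline, 18.5, 17.9 and 17.5 with Ang II, and 19.4, 22.3 and 19.6 with NaBu. The 6 libraries without NaBu stayed between 17.5 and 18.5, and all 3 NaBu libraries lay above them. The NaBu mean of 20.4 ± 1.65 (SD, n = 3) was 13.7% above the Ang II mean of 18.0 ± 0.47, a log2 difference of 0.18 ± 0.10 (SE) that did not pass the test (edgeR adjusted p = 0.309). Hdac3's within-group coefficient of variation of 5.26% was under the 12.3% median of 10836 genes with a mean of at least 5 CPM. If 4 estimated counts stand for 1 fragment, counting error alone is 6.5% to 9.2% of each Hdac3 value. The coefficients of variation of 0.51% in saline and 2.59% with Ang II lie under that error, so the libraries without NaBu may look steadier than counting allows.

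Hdac8 acts outside those complexes and in human cells deacetylates the cohesin subunit SMC3. It stood at 12.96, 15.8 and 14.2 CPM with saline, 14.9, 12.54 and 13.6 with Ang II, and 9.71, 12.97 and 9.20 with NaBu. NaBu replicates 2 and 6 were under every other library, while NaBu replicate 4 lay within the range of both other groups. The NaBu mean of 10.6 ± 2.04 (SD, n = 3) was 22.3% below Ang II, a log2 difference of -0.36 ± 0.16 (SE) with a 95% interval from -0.71 to -0.01 and an edgeR adjusted p of 0.208. Against saline the difference was -0.43 ± 0.16 (SE), with an edgeR adjusted p of 0.128.

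Among the class IIa enzymes, the NaBu libraries of Hdac4 and Hdac7 lay below all other libraries, and those of Hdac5 and Hdac9 overlapped with saline. Hdac4, a stress-responsive repressor of MEF2, stood at 29.3, 38.9 and 30.5 CPM with saline, 31.8, 29.6 and 32.4 with Ang II, and 23.6, 26.8 and 24.1 with NaBu. All NaBu libraries lay below the lowest library of the other groups, and saline replicate 2 was the highest of the 9. The NaBu mean of 24.8 ± 1.71 (SD, n = 3) was 20.6% below the Ang II mean of 31.3 ± 1.45, a log2 difference of -0.33 ± 0.12 (SE) with an edgeR adjusted p of 0.151. Against saline the log2 difference was -0.41 ± 0.12 (SE), where edgeR gave an adjusted p of 0.0769 and DESeq2 0.0443. Without saline replicate 2 it was -0.25, with an edgeR adjusted p of 0.2.

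Hdac7 is the class IIa member best known from endothelial cells and thymocytes, where in mice it is needed for vessel integrity. It stood at 84.8, 68.1 and 74.4 CPM with saline, 94.0, 74.5 and 78.0 with Ang II, and 61.6, 61.1 and 54.7 with NaBu. The NaBu libraries were the lowest of the 9. The NaBu mean of 59.1 ± 3.86 (SD, n = 3) was 28.1% below the Ang II mean of 82.2 ± 10.4. That is a log2 difference of -0.48 ± 0.12 (SE) with a 95% interval from -0.74 to -0.21, an unadjusted p of 0.00268 and an edgeR adjusted p of 0.0729. The call turned on the choice of test and libraries. The adjusted p was 0.0112 with DESeq2, 0.0248 with only the 2 groups in the edgeR fit, where 4.74% of all genes fell, and 0.0301 without saline replicate 2, where 3.27% fell. Over 19 alternatives it passed in 5, of which 2 are the same fit because saline is not in it, and the adjusted p ran from 0.0112 to 0.599. It was 0.141 to 0.275 in edgeR when any library of the Ang II or NaBu group was left out. Against saline the difference was -0.36 ± 0.12 (SE), where edgeR gave an adjusted p of 0.106 and DESeq2 0.0684.

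Endothelial markers, like Hdac7, were lower with NaBu than with Ang II. Within saline the marker sum did not follow it: replicate 2 had the lowest Hdac7, 68.1 CPM, and the highest sum. That sum held Vwf, a marker on the list, at 742.5 CPM, against 269.7 to 362.7 in the other 8 libraries. Among the saline libraries, Cdh5, Kdr, Tie1, Egfl7 and Flt1 were lowest in replicate 2, like Hdac7. Pecam1 and Eng were highest there, and Tek and Emcn lay in between. The 10 markers summed to 2239, 2505 and 2155 CPM with saline, 2516, 2208 and 2274 with Ang II, and 2167, 1834 and 1927 with NaBu. All 10 lay lower with NaBu than with Ang II and than with saline, with median log2 differences of -0.23 and -0.16, and Egfl7, an endothelial secreted protein, passed the test in both (log2 -0.61 and -0.56, edgeR adjusted p = 0.0296 and 0.0149). Other cell types were lower too by their medians. Relative to Ang II, these were -0.51 for erythroid, -0.54 for the scarce lymphocyte and -0.34 for smooth muscle markers. Those of ventricular cardiomyocyte, atrial, fibroblast and macrophage markers were 0.22, 0.45, 0.15 and 0.12. The smooth muscle sum was higher, at 2539 to 2813 CPM with NaBu against 1663 to 2024 with Ang II. It held mostly Des, which rose against saline (log2 0.65, edgeR adjusted p = 0.0425). Of its 5 markers, 4 lay below 0 relative to Ang II. Per 1000 CPM of endothelial markers, Hdac7 stood at 37.8, 27.2 and 34.5 CPM with saline, 37.4, 33.8 and 34.3 with Ang II, and 28.4, 33.3 and 28.4 with NaBu. On that ratio the NaBu libraries lay under all Ang II libraries by a narrow margin, with 33.3 against 33.8 at the closest. They overlapped with saline. That overlap rested on saline replicate 2, without which both saline values lay above all NaBu values. The sum in that library held the high Vwf, and the ratio was not taken without Vwf. In whole tissue, fewer endothelial cells and less RNA per endothelial cell cannot be told apart, and the part of the markers in the lower Hdac7 level was not tested.

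**Figure D3:**
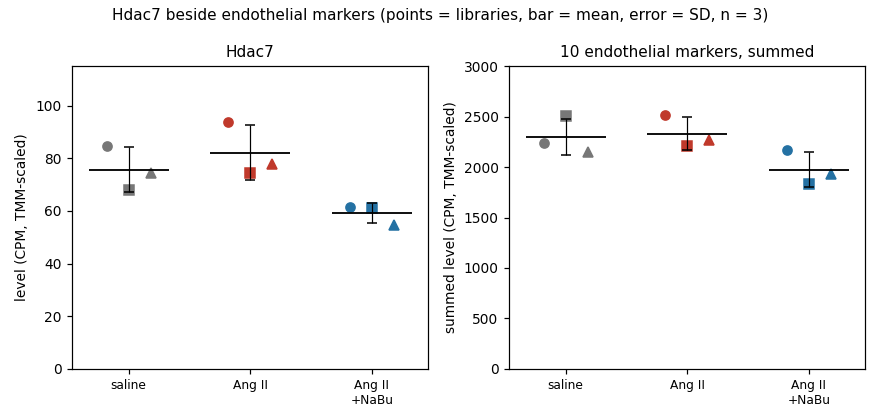
Hdac7 (left) and the summed level of 10 endothelial markers (right), both in TMM-scaled CPM on axes that start at 0; points are libraries, bars means and error bars SDs (n = 3). Hdac7 was 28.1% lower with NaBu than with Ang II, and the marker sums of the NaBu libraries, 1834 to 2167 CPM, lay below those of the Ang II libraries, 2208 to 2516 CPM.

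Hdac5, which with Hdac9 restrains hypertrophy in mice, stood at 74.5, 76.0 and 65.8 CPM with saline, 77.1, 74.8 and 71.5 with Ang II, and 69.3, 72.2 and 69.5 with NaBu. The groups overlapped, and NaBu against Ang II gave a log2 difference of -0.08 with a 95% interval from -0.28 to 0.11. Hdac9 stood at 53.4, 38.1 and 45.03 CPM with saline, 46.2, 44.0 and 44.9 with Ang II, and 49.7, 46.3 and 46.6 with NaBu. The NaBu libraries lay just above the Ang II libraries and inside the wide range of saline. The difference from Ang II was 0.08 ± 0.12 (SE) on the log2 scale, with an edgeR adjusted p of 0.745, and its sign turned to -0.03 with total count scaling, which moved the median of all genes to -0.13.

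Of the class IIb enzymes, Hdac10 had the lowest NaBu level relative to Ang II among the 9 members with usable values. It stood at 6.48, 7.69 and 7.09 CPM with saline, 6.68, 6.39 and 7.21 with Ang II, and 3.86, 4.87 and 5.35 with NaBu. Every NaBu library lay below every other library. The NaBu mean of 4.69 ± 0.76 (SD, n = 3) was 30.6% below the Ang II mean of 6.76 ± 0.42 and 33.8% below the saline mean of 7.08 ± 0.60. The log2 differences were -0.53 ± 0.18 (SE) and -0.59 ± 0.18, with edgeR adjusted p of 0.123 and 0.0754, and DESeq2 gave 0.0867 and 0.0444. Without saline replicate 2 the difference from saline was -0.51, with an edgeR adjusted p of 0.161. The gene is thinly covered, with 141 to 312 estimated counts per library. If 4 estimated counts stand for 1 fragment, counting error alone is 11.3% to 16.8% of each value.

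Hdac6 gave no usable comparison. It was listed at 183 estimated counts in saline replicate 3, 128 in Ang II replicate 1, and 248 and 318 in NaBu replicates 4 and 6, and at 0 in the other 5 libraries. Each group therefore holds at least 1 library at 0 and at least 1 well above it. Of 13029 genes with at least 100 estimated counts in some library, 183 (1.41%) were listed at 0 in at least 1 library, and 39 (0.299%) in at least 5. None of the 3 Hdac6 transcript identifiers was found in the RefSeq gene table used here, while 9 of the 10 members had at least 1 identifier there. Whether the zeros are failed estimates was not tested, so no mean or fold is given for Hdac6.

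The deposited split into transcripts varied more within groups than the gene sum for Hdac4, Hdac7 and Hdac10. Of the 46 member transcripts 30 passed the low-count filter, and 0 of them passed edgeR's test in any comparison, beside 0.0125%, 0.0157% and 0.0689% of all 31914 transcripts in Ang II against saline and in NaBu relative to Ang II and to saline. DESeq2 passed 1, 4 and 2 member transcripts, beside 2.04%, 5.93% and 7.32% of all transcripts tested, and 6 of those 7 calls were of the Hdac4 transcript XM_006245438.1, the Hdac10 transcript NM_001035000.1 or the Hdac6 transcript XM_228753.8, which are listed at or near 0 in some libraries of the groups compared and well above 0 in others.

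The Hdac7 transcript XM_008765843.2 took 48.4%, 53.1% and 39.0% of the gene in the saline libraries, 92.0%, 92.0% and 31.0% in the Ang II libraries, and 40.2%, 94.1% and 51.2% in the NaBu libraries. Shares near 92% and near 40% thus occurred within the same group. The 4 other Hdac7 transcripts made up the rest, with XM_006242364.3 listed at 0 in the 3 libraries where XM_008765843.2 was highest. The within-group coefficient of variation was 11.1% for the Hdac7 sum and 49.0% for this transcript.

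Hdac4 behaved alike. XM_017596541.1 took 15.7%, 22.6% and 82.4% of the gene with saline, 82.8%, 67.8% and 14.6% with Ang II, and 53.8%, 32.1% and 50.3% with NaBu. NM_053449.1 held 47.6% in saline replicate 1 and was listed at 0 in the other 8 libraries. By contrast the minor transcript XM_008767279.2 was above 0 everywhere, at 1.89, 3.30 and 2.97 CPM with saline, 2.62, 3.43 and 4.21 with Ang II, and 1.81, 1.81 and 1.42 with NaBu. All NaBu libraries lay below all other libraries, and the log2 difference from Ang II was -1.01 ± 0.41 (SE), where edgeR gave an adjusted p of 0.509 and DESeq2 0.0367.

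For Hdac10, XM_006242218.2 took between 38.3% and 100% of the gene, and its level of 3.86, 3.48 and 5.29 CPM with NaBu overlapped with 2.56, 3.54 and 6.56 with Ang II. The log2 difference of that transcript was 0.01 ± 0.42 (SE), where the gene sum gave -0.53. NM_001035000.1 was listed at 0 in all 3 NaBu libraries, and at 4.12, 0 and 0.65 CPM in the Ang II libraries, so relative to Ang II the lower Hdac10 sum lay in the other transcripts as the authors' counting split them. Relative to saline it lay in large part in XM_006242218.2 itself, which stood at 6.45, 6.04 and 5.01 CPM with saline, a log2 difference of -0.45 ± 0.42 (SE) with an edgeR adjusted p of 0.852. NM_001126373.2 took between 42.3% and 56.6% of Hdac8, with a coefficient of variation of 10.5% beside 12.4% for the sum. Of 18 Hdac9 transcripts, the most abundant, XM_008764611.2, took between 33.7% and 55.5% of the gene, with a coefficient of variation of 15.2% beside 9.98% for the sum. The next Hdac9 transcripts moved more: XM_017594371.1 took 28.6%, 30.3% and 3.60% in Ang II replicates 1, 2 and 3, and XM_017594368.1 took 14.5%, 15.5% and 40.9%. Over 6594 genes of several transcripts with a mean of at least 5 CPM, the median coefficient of variation was 12.2% for the gene sum and 27.5% for the highest transcript. The Hdac7 and Hdac4 transcripts, at 49.0% and 66.3%, lie above the second median and their sums, both at 11.1%, just below the first.

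**Figure D4:**
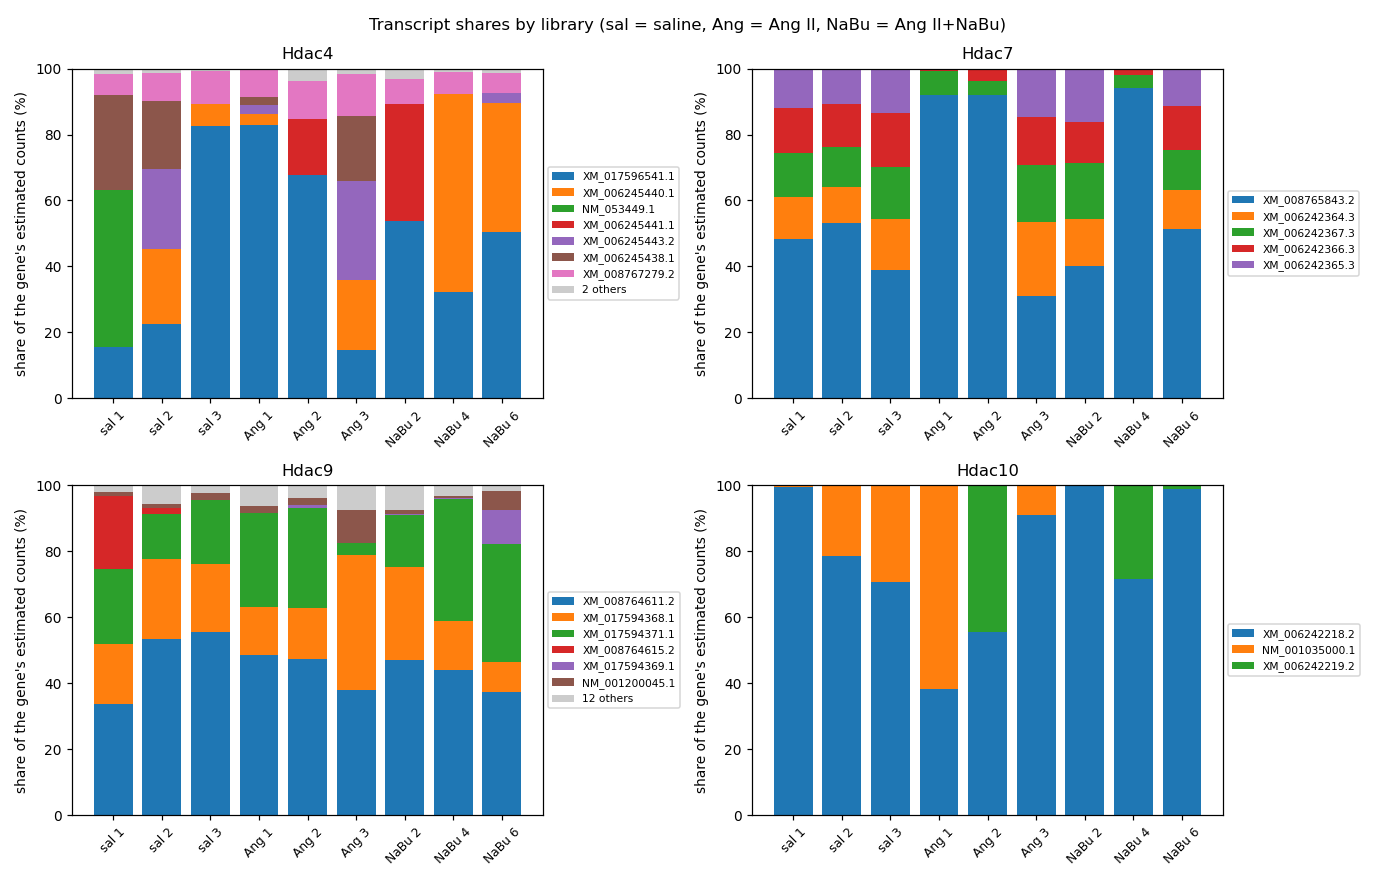
Share of each gene's estimated counts (vertical axis, percent) that the deposited tables give to its transcripts in each of the 9 libraries, for Hdac4, Hdac7, Hdac9 and Hdac10; grey stands for the minor transcripts together. The stacked colours change between libraries of 1 group for Hdac4 and Hdac7, where the largest transcript ranges from 14.6% to 82.8% and from 31.0% to 94.1%, and less for Hdac9, where it ranges from 33.7% to 55.5%.

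Among the proteins that class IIa deacetylases bind are MEF2 factors and the phosphoserine-binding adaptors of the Ywha family that hold the deacetylases in the cytoplasm. The transcripts of such bound proteins were higher with NaBu in part. This list and those of the following paragraphs were chosen with earlier results of these data known, so their counts are no independent support. Of 15 tested, 2 rose against Ang II and 4 against saline, and 0 fell. Of all genes, 0.647% and 3.01% rose in these comparisons and 0.957% and 2.05% fell. The list's median log2 differences were 0.18 and 0.23, beside -0.02 and -0.05 over all genes, and 12 of 15 lay above 0 in both comparisons, which share the NaBu libraries. For Ang II against saline, 0 of 15 passed and the median was 0.01. Without saline replicate 2 the counts that rose were 5 relative to Ang II and 3 relative to saline, beside 6.16% and 1.86% of all genes.

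Mef2d, the MEF2 factor that drives stress-dependent remodelling in the mouse heart, stood at 118, 122.6 and 136.8 CPM with saline, 124.4, 129.5 and 123.7 with Ang II, and 178.2, 164.7 and 197.4 with NaBu. The NaBu libraries were clear of the other 6, and the log2 difference was 0.52 ± 0.10 (SE) against either group, with edgeR adjusted p of 0.0427 against Ang II and 0.0262 against saline. With the highest transcript in place of the sum, the differences were -0.56 and -0.03. Ywhae stood at 281.2, 301.3 and 337.4 CPM with saline, 326.2, 299.7 and 291.3 with Ang II, and 507.8, 408.1 and 453 with NaBu. Again the NaBu libraries lay apart, by log2 0.58 ± 0.11 (SE) from Ang II with an edgeR adjusted p of 0.0445, and by 0.57 ± 0.11 from saline with 0.0295. Mef2a and Ywhag rose relative to saline, by log2 0.41 ± 0.09 and 0.60 ± 0.15 (SE), with edgeR adjusted p of 0.0367 and 0.0488. Relative to Ang II, neither passed the reported test, and both lay above 0 under all 19 alternatives, with log2 differences from 0.31 to 0.50 for Mef2a and from 0.35 to 0.51 for Ywhag. Relative to saline, the calls of Mef2a, Mef2d, Ywhae and Ywhag were all lost with only the 2 groups compared, without saline replicate 1 and without any NaBu library. The same calls were also lost without Ang II replicate 2 or 3 and with the highest transcript in place of the sum. That of Mef2a was also lost without saline replicate 2 (adjusted p of 0.0535 in edgeR), and that of Ywhag without Ang II replicate 1. Mef2a and Mef2d were also lost with total count scaling, and Ywhag with upper-quartile scaling. Ywhah was the highest of the list against Ang II, at log2 0.58 ± 0.14 (SE) with an edgeR adjusted p of 0.0648, and Mef2b, under 1 CPM in each group mean, the lowest. Relative to Ang II, the calls of Mef2d and Ywhae were lost when saline replicate 1 or any library of the Ang II or NaBu group was left out, where 1 to 44 genes passed in all, and with total count scaling, where 4 did. Cardiomyocyte marker sums were 62250 to 63690 CPM with Ang II and 67020 to 74890 with NaBu, and their part in these rises was not tested.

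**Figure D5:**
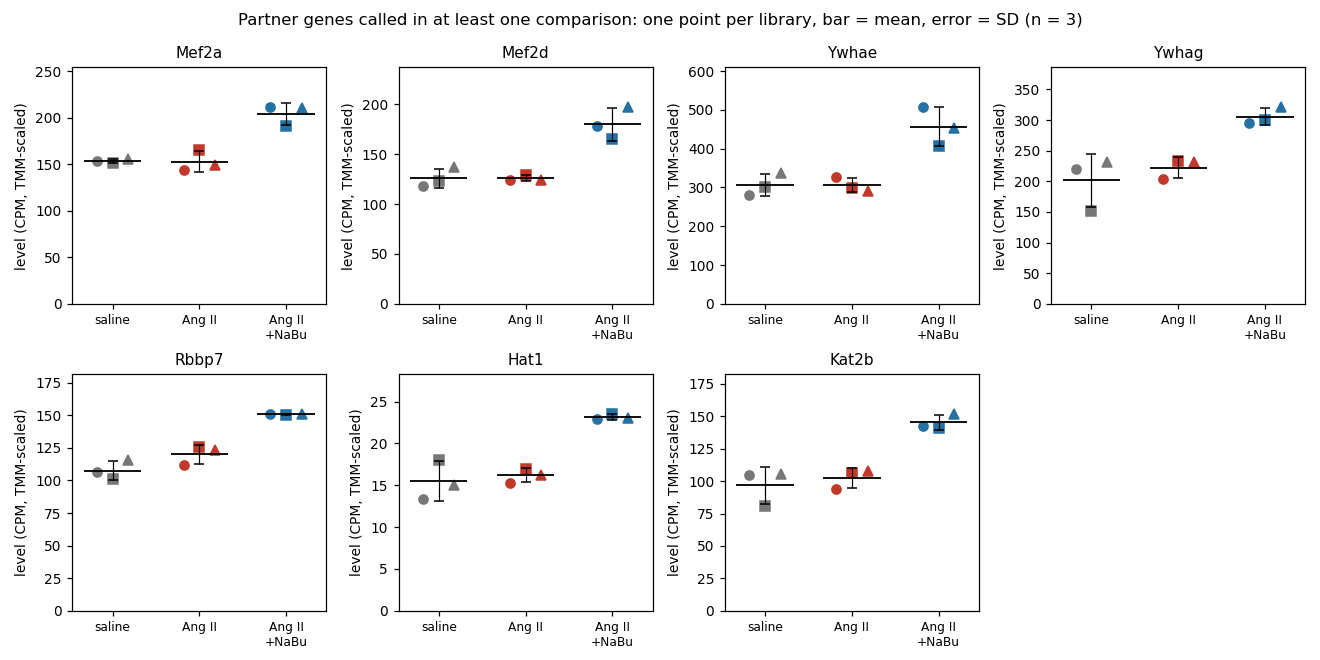
Level (vertical axes, TMM-scaled CPM from 0) of the 7 genes of the partner and acetyltransferase lists that passed edgeR's test in at least 1 comparison; points are libraries, bars means and error bars SDs (n = 3). In each panel all 3 NaBu libraries lie above all 6 others, while saline and Ang II overlap.

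Kinases that phosphorylate class IIa deacetylases did not pass in any comparison, 0 of 13 tested, with medians of 0.0039, -0.0037 and 0.01. Prkd2, a protein kinase D and the lowest of the list relative to Ang II, stood at 40.3, 31.2 and 32.98 CPM with saline, 44.3, 34.6 and 34.8 with Ang II, and 26.3, 26.7 and 25.1 with NaBu. The NaBu libraries were all below the others, with a log2 difference from Ang II of -0.54 ± 0.13 (SE) and an edgeR adjusted p of 0.0654. The highest, Camk2b, was under 1 CPM in each group mean.

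Partners in class I complexes (Sin3, NuRD, CoREST and NCoR subunits, 35 tested) held 0, 0 and 1 calls in the 3 comparisons, beside median log2 differences of -0.03, 0.02 and 0.01. A single gene of 35 is close to the 3.01% of all genes that rose relative to saline. The call was Rbbp7, a histone-binding subunit of the Sin3 and NuRD complexes. It stood at 106.2, 101 and 115.7 CPM with saline, 111.8, 125.3 and 123.1 with Ang II, and 150.8, 150.6 and 151.2 with NaBu. The NaBu libraries were within 1 CPM of each other and above the rest, with a log2 difference of 0.49 ± 0.09 (SE) from saline (edgeR adjusted p = 0.0236) and of 0.33 ± 0.09 from Ang II (adjusted p = 0.0827). Chd3, the NuRD remodelling ATPase, was the lowest of the list in both NaBu comparisons, at log2 -0.40 ± 0.18 (SE) against Ang II with an edgeR adjusted p of 0.228.

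Of the opposing enzymes, the acetyltransferases (10 tested), 2 rose against saline, beside 3.01% of all genes, and 0 passed in the other comparisons, with medians of -0.04, 0.00 and -0.06. Hat1, which acetylates newly made histone H4, stood at 13.4, 18.1 and 15.0 CPM with saline, 15.3, 17.0 and 16.2 with Ang II, and 22.9, 23.6 and 23.0 with NaBu. Its log2 difference from saline was 0.58 ± 0.12 (SE), with an edgeR adjusted p of 0.0338. Kat2b (PCAF), a coactivator acetyltransferase, stood at 105.1, 80.5 and 105.4 CPM with saline, 93.8, 106.6 and 107.5 with Ang II, and 142.8, 141.1 and 152 with NaBu, a log2 difference from saline of 0.58 ± 0.12 (SE) with an edgeR adjusted p of 0.0305. Both genes were clear of the other 6 libraries. Kat2a, the paralog of Kat2b, lay the other way, at log2 -0.40 ± 0.11 (SE) against saline with an edgeR adjusted p of 0.065. Without saline replicate 2 both calls held, as did that of Rbbp7, and none of these 3 calls held when any NaBu library or Ang II replicate 2 or 3 was left out, or with only the 2 groups compared (adjusted p of 0.0833 for Hat1, 0.088 for Kat2b and 0.0778 for Rbbp7 in edgeR). Hat1 and Rbbp7 were also lost without saline replicate 1, and Hat1 with total count scaling (edgeR adjusted p = 0.127). With the highest transcript in place of the sum, the Hat1 difference was 1.15 with an edgeR adjusted p of 0.77.

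Other deacetylases numbered 8 (Hdac11 and the NAD-dependent sirtuins Sirt1 to Sirt7), and 0 passed in any comparison, with medians of 0.11, -0.08 and 0.10. Hdac11, the sole class IV enzyme, was the lowest of these for Ang II against saline, at 5.998, 8.17 and 6.36 CPM with saline and 6.87, 5.34 and 6.10 with Ang II, and it stood at 6.05, 6.92 and 6.89 with NaBu. The 3 groups overlapped. Sirt6 was the highest for Ang II against saline (12.51 ± 0.64 against 9.19 ± 1.68 CPM, SD, n = 3), with an edgeR adjusted p of 0.774. In the NaBu comparisons the extremes were Sirt2 and Sirt4, with edgeR adjusted p of 0.501 and 0.407 against Ang II.

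Lists of genes near the enzymes' action gave no calls. Of 8 genes for substrates of Hdac6 and the tubulin acetylase Atat1, 0 passed, with Tuba4a highest at log2 0.46 ± 0.17 (SE) against Ang II (edgeR adjusted p = 0.158). Of 3 bromodomain readers of acetylated histones tested out of 4 listed, 0 passed, with Brd2 lowest against Ang II at log2 -0.20 ± 0.11 (SE). The 4 genes known to be induced by deacetylase inhibitors in cultured cells, Cdkn1a, H1f0, Gsn and Klf4, gave 0 calls and medians of -0.01, -0.13 and 0.06. Cdkn1a, the cell-cycle inhibitor p21, stood at 26.3, 15.0 and 21.6 CPM with saline, 36.5, 37.4 and 39.8 with Ang II, and 38.0, 27.9 and 25.7 with NaBu. The Ang II libraries all lay above saline, with a log2 difference of 0.85 ± 0.20 (SE) and an edgeR adjusted p of 0.594, and NaBu spanned the gap between them. H1f0, the linker histone, was 42.9 ± 0.91 CPM with NaBu and 35.9 ± 5.81 with Ang II (SD, n = 3), with an edgeR adjusted p of 0.232. Its NaBu libraries, at 43.9, 42.3 and 42.4 CPM, lay above all saline and Ang II libraries, at 29.6 to 41.1. Of the 4 genes, H1f0 alone lay above 0 relative to Ang II, and 3 lay below.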

How the data were processed

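Left-ventricle RNA of 9 libraries in 3 groups was read from 3 tables, 1 per group. Per the file headers, rows are transcripts with their gene name, and each library has a column. The authors deposited estimated counts, which were whole numbers throughout, so rounding changed nothing. Per the submitters' processing notes Bowtie 0.12.2 and the build mm8, a mouse build, were used, while the IDs are rat RefSeq IDs. Which counter, annotation and strand setting served is not given in the sources used here. Reads shared by paralogs or overlapping genes may therefore have been split between them. In the NaBu table the columns are numbered 2, 4 and 6 but the labels number these samples 1, 2 and 3, so these columns were assigned to the group and not to a named sample, and are called by their column numbers.

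Transcripts were summed by gene name and tested with edgeR 4.0.16 in R 4.3.3 (TMM, filterByExpr, quasi-likelihood, prior count 0.125, a mean per group) on 15467 genes, and likewise on 31914 transcripts. The standard error is the log2 difference over the root of F, and intervals are at 95%. Adjusted p-values are Benjamini-Hochberg over all features tested. The common biological coefficient of variation was 0.256. Alternatives used DESeq2 1.42.0, other scalings, filters and libraries left out. The script was tested on simulated data. Counting errors cover counting only. Promoters and identifiers come from RefSeq tables of GRCr8. All 10 members matched by gene name, while no Hdac6 transcript identifier matched. Named genes are all members and, per list and comparison, the genes that passed and both extremes. The members and lists were chosen with earlier results of these data known.

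Same-numbered saline and Ang II libraries did not deviate together (correlations of -0.07, -0.07 and -0.02), so numbers were not treated as pairs.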

Additional observations from a re-analysis of the deposited data

How the results depend on the processing

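Of 522 recalculations of the members' log2 differences, 487 kept direction and side of the threshold, 7 passed it where the reported fit did not, and 28 turned sign. The cause of the turns was not tested. The members that passed were 1 (Hdac7) for NaBu relative to Ang II with DESeq2, with only the 2 groups compared, with those groups and saline replicate 2 left out, and with saline replicates 2 and 3 left out, and 0 to 1 over libraries left out singly; relative to saline they were 2 with DESeq2. Member transcripts that passed with DESeq2 were 1, 4 and 2. Low counts limit Hdac10, and the low-level splits limit the transcripts. Where saline replicates 2 and 3 are left out, the lone saline library is assumed to vary like the other groups.

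Genes that passed for Ang II against saline were 57 with DESeq2, 1 with only the 2 groups, 5 with those groups without saline replicate 2, 3 with the highest transcript per gene and 11 without saline replicates 2 and 3, and 0 to 7 over libraries left out singly. For NaBu relative to Ang II they were 4 with total count scaling, 1515 with DESeq2, 1802 with only the 2 groups (and again 1802 when saline replicate 2, which is not in it, is left out), 5 with the highest transcript and 1695 without saline replicates 2 and 3, and 1 to 1482 over libraries left out singly. For NaBu relative to saline they were 411, 1990, 9, 21 and 109 in that order, 142 with only the 2 groups and saline replicate 2 left out, and 6 to 1303 over libraries left out singly.

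Log2 differences that turned sign for Ang II against saline were, with total count scaling, 0.038 for Hdac3 and 0.051 for Hdac9; with only the 2 groups and saline replicate 2 left out, 0.066 for Hdac4 and 0.010 for Hdac8; with the highest transcript, 0.42 for Hdac4; and without saline replicates 2 and 3, 0.062 for Hdac10, 0.093 for Hdac4, -0.0013 for Hdac5, -0.045 for Hdac7 and 0.077 for Hdac8. For NaBu relative to Ang II, Hdac9 gave -0.031 with total count scaling and Mef2d -0.56 with the highest transcript. For NaBu relative to saline, the 2 groups with saline replicate 2 left out gave 0.035 for Hdac1, 0.010 for Hdac5 and -0.043 for Hdac9, the highest transcript 0.057 for Hdac7, -0.052 for Hdac9 and -0.029 for Mef2d, and leaving out saline replicates 2 and 3 0.035 for Hdac1 and -0.17 for Hdac9.

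Over libraries left out singly, the differences that turned sign for Ang II against saline ranged from -0.0085 to 0.17 for Hdac1, -0.018 to 0.0099 for Hdac3, -0.15 to 0.060 for Hdac4, -0.014 to 0.084 for Hdac5, -0.14 to 0.0046 for Hdac8 and -0.13 to 0.12 for Hdac9. For NaBu relative to saline they ranged from -0.097 to 0.041 for Hdac1, -0.097 to 0.017 for Hdac5 and -0.037 to 0.20 for Hdac9.

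With the number as a replicate block, which can be fitted for Ang II and saline only, 0 genes, 0 members and 0 member transcripts passed.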
